A study of Mus musculus with 4 samples.

Results

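DHX9 peaks were examined in 35 mouse genes for DNA repair proteins and topoisomerases, taken by name from a list that was drawn up with earlier results of these data known. A peak was counted for a gene when its midpoint lay between the first and the last base of the gene on mm10. The genes held 320 of the 59563 peaks deposited for the series (0.537%), spread over 25 of the 35 genes. The 35 genes were among 21900 protein-coding genes that were counted the same way.

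The peaks come from FLASH, a CLIP-seq method in which RNA is crosslinked to protein with ultraviolet light and the fragments that come down with an antibody are sequenced. WT26, a male mouse embryonic stem (ES) cell line of C57BL/6x129sV background that needs no feeder cells, was grown with serum and leukemia inhibitory factor. The labels give no mutation or drug for any sample, and all 4 were crosslinked and treated with RNase I. A rabbit antibody against DHX9 was used for 2 pulldowns and control rabbit IgG for the other 2, and the labels name biological replicates A and B for each. The authors deposited 1 peak list for the 4 samples, without a height, p-value or read count per peak, so that depth is unknown and no value can be given per replicate or for IgG. No error between pulldowns and no test of a difference between them is therefore possible, and the intervals below are 95% Wilson intervals that cover counting error only. All 8 ES cell markers examined held peaks, from 4 in Utf1 to 64 in Esrrb, and none of the 6 fibroblast markers did.

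DHX9 is a helicase that unwinds RNA duplexes and RNA-DNA hybrids. Such hybrids, called R-loops when they leave the other DNA strand unpaired, form behind RNA polymerase, and topoisomerases limit them by relieving the twist that transcription puts into DNA. R-loops that persist lead to DNA breaks, which the repair genes described here encode the means to detect and mend. Proteins of several of them, among them topoisomerase II alpha, BRCA1, WRN and the Ku dimer, are known to associate with DHX9. The peaks measured here are on RNA, nearly all on the strand of the gene where that strand was listed. They say nothing of contacts between the proteins.

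DHX9 peaks were found in most of these genes. Of the 35 genes 25 (71.4%, interval 54.9 to 83.7%) held at least 1 peak, against 22.8% of all protein-coding genes. The repair genes are long, with a median of 52.5 kb against 17.1 kb for protein-coding genes, and longer genes hold peaks more often. Averaged over the length deciles in which the 35 genes fall, 33.5% of protein-coding genes held a peak, which left a difference of 37.9 percentage points. At least 3 peaks were found in 19 of the 35 genes (54.3%), against 14.8% of all protein-coding genes and 22.9% over the same length deciles. At least 10 were found in 12 (34.3%), against 7.27% of all and 12.6% over the same deciles. Expression is not in the deposited list, and the part of RNA amount in these shares was not tested. A gene that is silent in these cells and one whose RNA DHX9 did not bind cannot be told apart by the absence of a peak.

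**Figure D1:**
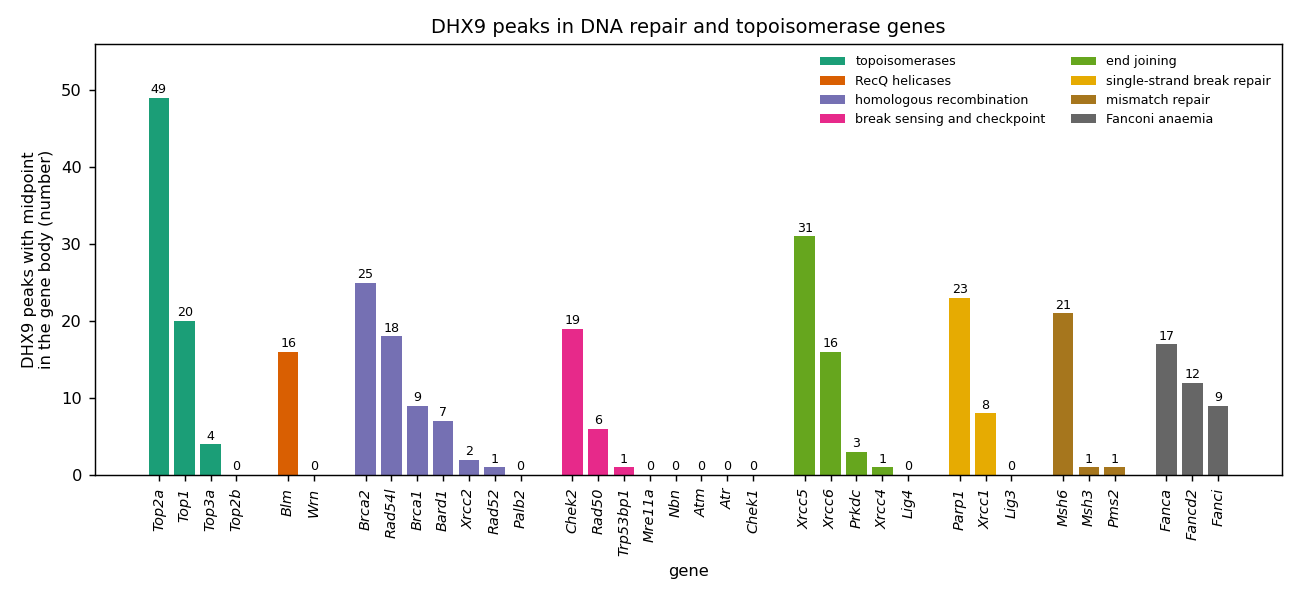
Number of DHX9 peaks whose midpoint lay in each of the 35 genes, grouped and coloured by pathway; bars start at 0 and the count stands above each bar. Top2a held 49 peaks and Xrcc5 31, while 10 genes held none, 5 of them for break sensing and checkpoint proteins.

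Most peaks lay in a minority of these genes when the genes without a peak are counted too. The 11 genes with 16 or more peaks held 255 of the 320 (79.7%). Where strand was listed, 11 of the 20 genes with a sense peak held at least 10, together 246 of 283 sense peaks. Over protein-coding genes 1285 of 3862 did, together 36622 of 45231. Among genes with a sense peak, those with at least 10 were thus a majority in this list but a minority over protein-coding genes. That difference was not tested. A further 5 genes held exactly 1 peak each, and the median over the 25 genes with a peak was 9, against 5 for all protein-coding genes with a peak. Per kb of gene these medians were close, at 0.184 and 0.176 peaks. Length did not separate the genes with a peak, whose median was 57.8 kb, from those without, at 43.7 kb. The shortest gene of the list, Lig4 at 7.66 kb, had none, but Wrn at 151 kb and Atm at 99.7 kb had none either. Msh6 held 21 peaks in 15.8 kb, the shortest gene of the list with a peak.

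**Figure D2:**
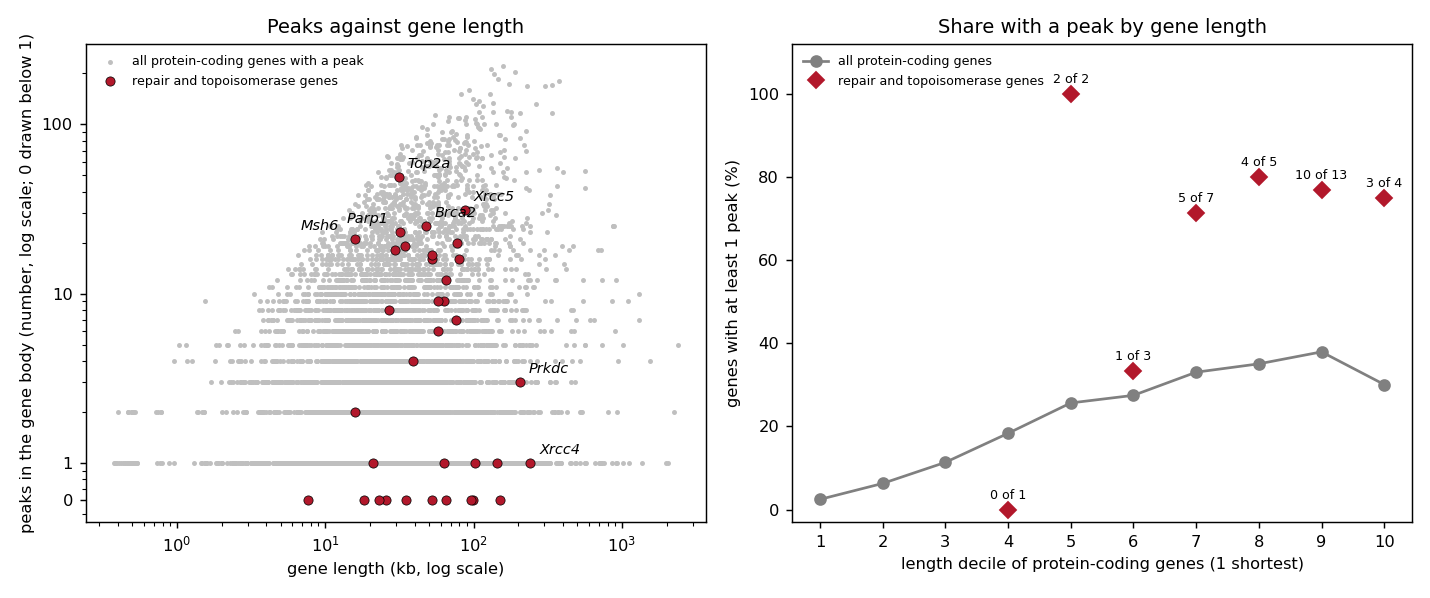
Left, peaks per gene against gene length, both on log scales with 0 drawn below 1, for the 35 genes (red) and all protein-coding genes with a peak (grey). Right, share of genes with at least 1 peak in each length decile, with the number of repair and topoisomerase genes written beside each point; 10 of the 13 genes in decile 9 held a peak, against 37.9% of all genes in that decile.

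Of the 4 topoisomerase genes Top2a, Top1 and Top3a held peaks and Top2b held none (75%, interval 30.1 to 95.4%). Over their length deciles 36.0% of protein-coding genes held a peak. Top2a encodes topoisomerase II alpha, the form of proliferating cells that untangles DNA by passing a duplex through a break in another. It held 49 peaks, all on its own strand, in 31.3 kb of chromosome 11 (98992947 to 99024199), or 1.57 per kb. They covered 44.0% of the bases of the gene, the highest share among the 35 genes. Of the 2190 protein-coding genes in its length decile, 25 (1.14%) held at least as many peaks. The peaks began 2.00 kb after the start of the gene and went on to 31.0 kb, with no gap between midpoints above 2.49 kb. Top2b, the form also found in cells that no longer divide, had no peak in 65.6 kb of chromosome 14. Top3a, a topoisomerase that works with BLM on crossed DNA strands, held 4 peaks in 39.2 kb, all on the minus strand.

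Top1 encodes topoisomerase I, which relieves twist during transcription by nicking a strand of DNA, and its peaks differed in strand from those of the other genes. It held 20 peaks in 76.9 kb of chromosome 2 (160645897 to 160722764). Of these 13 lay on the strand of Top1 and 7 on the opposite, minus strand. The first 2 sense peaks had their midpoints 0.83 and 1.11 kb after the start. The 7 minus-strand peaks followed, between 5.48 and 8.51 kb, and the other 11 sense peaks lay from 9.61 to 43.3 kb. Sense and minus-strand peaks thus alternated in blocks and did not intermingle. A further 12 minus-strand peaks lay before the start of Top1, with midpoints from -6.61 to -0.151 kb (160639159 to 160645864), and none of them was in an annotated gene. No plus-strand peak was found in the 20 kb before the start. None of the 7 minus-strand peaks inside Top1 lay in another annotated gene.

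**Figure D3:**
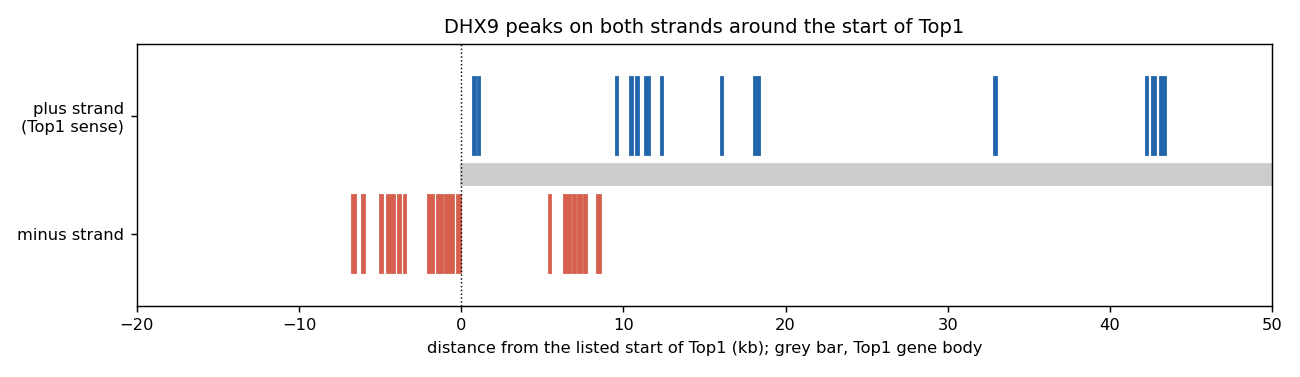
DHX9 peaks from 20 kb before to 50 kb after the start of Top1, drawn to width, on the plus strand (blue, the strand of Top1) and the minus strand (red); the horizontal axis is the distance from the start in kb. The 19 minus-strand peaks lie from -6.61 to 8.51 kb, and the 13 plus-strand peaks lie between 0.83 and 43.3 kb after it.

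Peaks on both strands of a gene were rare by a count that was not planned and that includes Top1. Of 2023 protein-coding genes with a listed strand and at least 5 sense peaks, 15 (0.741%) also held at least 5 antisense peaks, and in 9 of these 15, Top1 among them, at least 5 of the antisense peaks lay in no other gene. The minus-strand peak nearest the start of Top1 (160645629 to 160645864) covered most of its promoter. Msh6 was the other gene of the list whose promoter window met a peak, there on the strand of the gene. Both promoters are shown as they stand in the RefSeq table of GRCm38.p6, from 250 bases before to 30 bases after the listed start, with the bases under a peak in capitals. In Top1 (chr2:160645647-160645926, plus strand) these were the first 218 bases, so that the peak ended 32 bases short of the start. In Msh6 (chr17:87974800-87975079, plus strand) they were the last 45 bases, beginning 15 bases before the start.
Top1: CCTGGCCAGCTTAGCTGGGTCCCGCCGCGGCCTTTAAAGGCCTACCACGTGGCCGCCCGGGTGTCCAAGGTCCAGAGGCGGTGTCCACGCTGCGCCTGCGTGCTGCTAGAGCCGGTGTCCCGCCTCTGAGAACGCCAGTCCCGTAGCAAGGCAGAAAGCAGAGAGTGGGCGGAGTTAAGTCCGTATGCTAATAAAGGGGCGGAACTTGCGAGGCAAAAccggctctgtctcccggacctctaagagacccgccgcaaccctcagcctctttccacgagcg
Msh6: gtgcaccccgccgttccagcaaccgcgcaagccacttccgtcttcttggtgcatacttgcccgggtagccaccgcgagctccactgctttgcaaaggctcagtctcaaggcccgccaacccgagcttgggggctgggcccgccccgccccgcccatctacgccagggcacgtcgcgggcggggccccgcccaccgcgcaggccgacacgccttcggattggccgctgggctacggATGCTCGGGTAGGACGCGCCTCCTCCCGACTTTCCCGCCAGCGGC

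Of the 2 RecQ helicase genes Blm held peaks and Wrn held none (50%, interval 9.45 to 90.5%), against 34.0% over their length deciles. BLM unwinds crossed and forked DNA structures, and its loss raises exchange between sister chromatids. Blm held 16 peaks, all sense, in 80.2 kb of chromosome 7 (80454993 to 80535148). The first lay 45.6 kb after the start and the last at 63.4 kb, so that the gene was free of peaks before and after that stretch. Of the 2190 genes in its length decile 240 held as many peaks or more. Wrn, whose human counterpart is lost in a disease of early ageing, had no peak in 151 kb of chromosome 8.

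Among the genes for homologous recombination, which repairs breaks by copying a sister strand, 6 of 7 held peaks and the counts ranged widely. That share (85.7%, interval 48.7 to 97.4%) stood against 32.9% over the same length deciles. Brca2, a tumour suppressor gene needed for strand exchange, held 25 peaks in 47.9 kb of chromosome 5 (150522297 to 150570147), all sense, between 3.63 and 35.8 kb after its start. They fell into groups of 7, 5 and 10 peaks with 1 isolated peak before each. Rad54l, whose product is a motor protein that moves along DNA, held 18 peaks in 29.4 kb of chromosome 4, of which 10 lay between 1.09 and 4.51 kb after the start and none beyond 16.3 kb. Brca1 held 9 peaks in 63.2 kb and its partner gene Bard1 7 in 75.6 kb. In Brca1 5 of the peaks lay within 19.0 kb of the start and the other 4 between 50.4 and 60.9 kb, with 31.4 kb between the groups. In Bard1 4 of the 7 lay between 43.6 and 44.9 kb. Xrcc2, also needed for strand exchange, held 2 peaks and Rad52 held 1. Palb2, whose product links BRCA1 to BRCA2, held none in 25.7 kb.

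Genes for break sensing and checkpoint proteins held peaks least often, in 3 of 8 cases (37.5%, interval 13.7 to 69.4%), close to the 35.1% of protein-coding genes in the same length deciles. The difference between this group and the others was not tested. The kinase genes Atm and Atr, which start the response to broken and to single-stranded DNA, held no peak in 99.7 and 95.6 kb. Mre11a and Nbn, which encode partners of RAD50 in the complex that first binds broken ends, held none, and Rad50 held 6 in 57.8 kb, each more than 2 kb from the next. The checkpoint kinase genes stood apart from each other. Chek1 had no peak in 18.2 kb of chromosome 9, while Chek2 held 19 in 34.3 kb of chromosome 5 (110839800 to 110874140), all sense. Of these 13 lay between 10.6 and 18.1 kb after the start of Chek2, and 7.90% of genes in its length decile held as many peaks or more. Trp53bp1, whose product marks breaks for end joining, held 1 peak of 70 bases.

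In the end joining pathway, which rejoins broken ends without a template, the peaks lay mostly on the genes of the Ku dimer. Xrcc5, which encodes the larger Ku subunit, held 31 peaks in 87.5 kb of chromosome 1 (72307417 to 72394953), all sense. Of these 15 lay between 5.76 and 17.1 kb after the start, no peak followed for 30.3 kb, and 8 more lay between 47.4 and 52.3 kb. The remaining 8 were scattered from 59.6 to 86.3 kb. Xrcc6, which encodes the smaller subunit, held 16 peaks in 52.3 kb of chromosome 15 (81987833 to 82040085). The table's gene body begins 28.5 kb before the listed start of Xrcc6 and takes in Desi1, a gene on the minus strand. The 2 minus-strand peaks counted for Xrcc6 lay in Desi1 and on its strand, and all 14 plus-strand peaks lay between 3.15 and 18.2 kb after the listed start of Xrcc6. Prkdc, which encodes the kinase that Ku recruits, held 3 peaks in 205 kb. Xrcc4 held 1 in 241 kb, and Lig4, the gene of the ligase that XRCC4 supports, held none.

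Parp1 and Xrcc1 carried the peaks of the single-strand break genes. PARP1 binds nicked DNA and builds chains of ADP-ribose that bring in XRCC1. Parp1 held 23 peaks, all sense, in 32.1 kb of chromosome 1 (180568891 to 180600999). Of these 14 lay between 0.143 and 9.24 kb after the start and 7 between 14.9 and 17.7 kb, with a lone peak at 12.6 kb and another at 31.7 kb, near the end of the gene. No peak overlapped the microRNA gene Mir6904 inside Parp1. Xrcc1 held 8 peaks in 26.7 kb, all between 1.58 and 5.19 kb after the start, and the rest of the gene was empty. Lig3, which encodes the ligase that XRCC1 holds, had no peak in 23.2 kb.

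All 3 mismatch repair genes held a peak, but nearly all of the peaks were in Msh6. The interval for 3 of 3 was 43.9 to 100%, and the share over their length deciles was 31.2%. MSH6 takes part in finding mispaired bases, and MSH3 in finding larger loops. Msh6 held 21 peaks in 15.8 kb of chromosome 17 (87975050 to 87990892), or 1.33 per kb, covering 40.1% of its bases. They lay from 0.246 to 11.4 kb after the start, with no gap between midpoints above 1.825 kb. Of the genes in its length decile 35 of 2190 (1.60%) held as many peaks or more. Msh3 and Pms2, the latter a gene for a later step of the pathway, held 1 peak each in 143 and 62.8 kb.

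All 3 genes of the Fanconi anaemia pathway, which clears crosslinks between DNA strands, held at least 9 peaks. For at least 1 peak, the interval for 3 of 3 was 43.9 to 100%, against 37.0% over their length deciles. Fanca, a gene of the core complex, held 17 in 52.4 kb of chromosome 8 (123266294 to 123318651), all sense, beginning 12.5 kb after the start. Fancd2 and Fanci encode the pair of proteins that this complex marks with ubiquitin. Fancd2 held 12 peaks in 65.4 kb of chromosome 6 (113531640 to 113597020), all on the plus strand, of which 10 lay within 3.53 kb, between 9.06 and 12.6 kb from the low end of the gene. Fanci held 9 peaks in 58.0 kb of chromosome 7 (79392312 to 79450266). Of its 8 sense peaks 5 lay between 7.86 and 8.99 kb after the start, and its ninth peak was antisense, in no other gene.

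Peaks lay in runs in these genes about as often as in protein-coding genes at large. Peaks on the strand of the gene (for the genes with no listed strand, the strand that held most of their peaks) were joined where their midpoints were up to 2 kb apart. By this rule 212 of 310 peaks (68.4%) lay in runs of at least 5, against 72.5% over all protein-coding genes. Such a run was present in 14 of the 17 genes with at least 5 peaks on that strand, and in 2021 of 2499 protein-coding genes. The exceptions among the 17 were Bard1, Brca1 and Rad50. By gene, the longest runs were 24 peaks over 11.2 kb in Top2a, 21 over 11.1 kb in Msh6, 14 over 9.09 kb in Parp1 and 13 over 7.58 kb in Chek2. In Fancd2 the longest run spanned 5.40% of the gene and held 83.3% of its peaks. The deposited list gives no exons, and whether runs followed introns or exons was not analysed here.

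**Figure D4:**
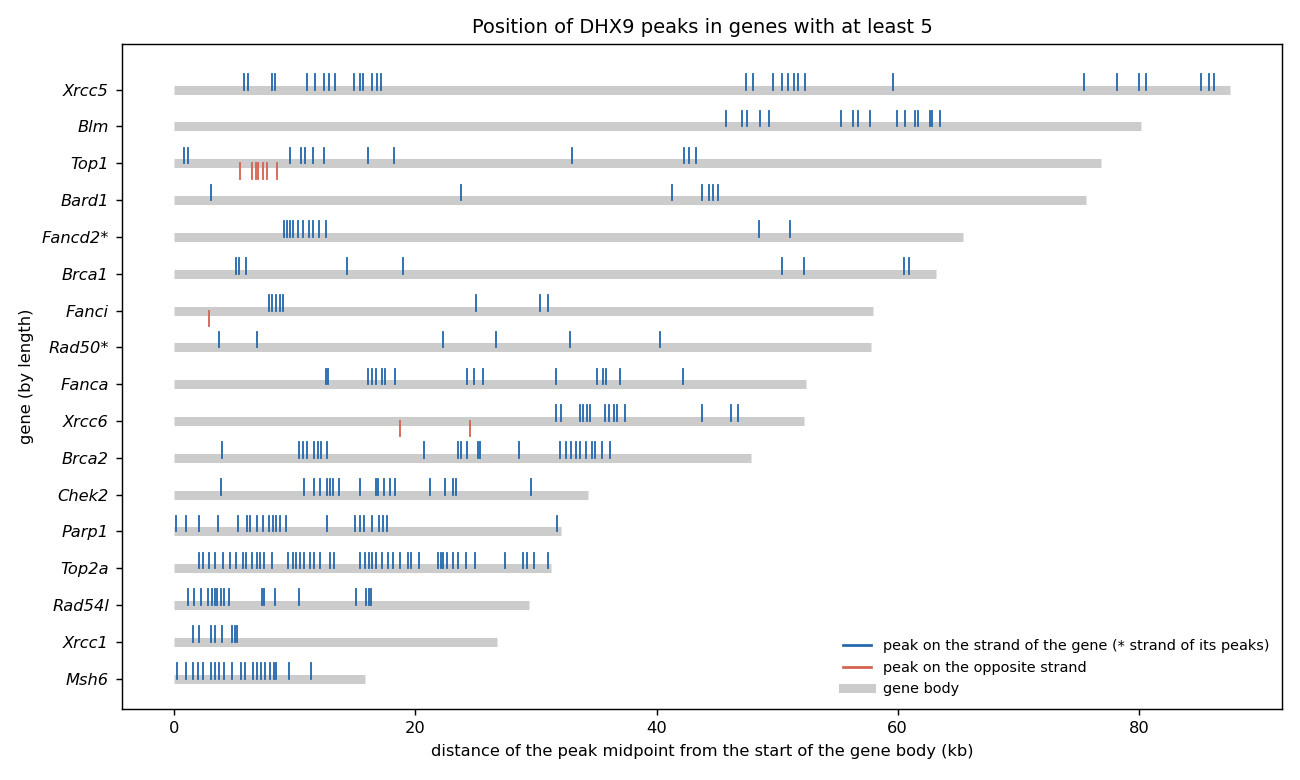
Midpoints of DHX9 peaks in the 17 genes with at least 5 peaks, as ticks on the gene body (grey), by distance in kb from the start of the body; ticks above are on the strand of the gene and ticks below on the opposite strand. Msh6 and Top2a have the densest peaks, with 40.1 and 44.0% of their bases covered, Xrcc1 is covered only near its start, and all peaks of Blm lie in the second part of the gene; asterisks mark genes drawn by the strand of their peaks.

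Along the gene, peaks were fewest in the last 20% of the body. Position was read in the 15 genes with a listed strand and at least 5 sense peaks. As a mean over these genes, 30.3% of sense peaks lay in the first 20% of the body and 6.87% in the last 20%. Over 2023 protein-coding genes these shares were 25.8 and 12.6%. More peaks lay in the first than in the last 20% in 10 of the 15 genes, fewer in 2 (Xrcc6 and Fanca), and equal numbers in 3 (Brca1, Chek2 and Blm). Xrcc1 had all 8 of its peaks in the first 20%, and Fanci, Rad54l and Top1 had 62.5, 55.6 and 53.8% there. Fanca, Xrcc6 and Blm had none, but the Xrcc6 body used here begins 28.5 kb before its listed start. Read from that start, Xrcc6 had sense peaks in the first 20% and none in the last, so its direction depends on the body used. With at least 10 sense peaks required, 11 genes were left and the shares were 22.2 and 6.34%, against 26.1 and 11.9% over protein-coding genes, so that the share in the first 20% no longer lay above that of the other genes while the share in the last 20% still lay below. Neither difference from the other genes was tested. Close to the start, 3 of 20 genes with a sense peak (Parp1, Msh6 and Top1) had one within 1 kb of the listed start, against 24.0% of protein-coding genes with a sense peak.

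**Figure D5:**
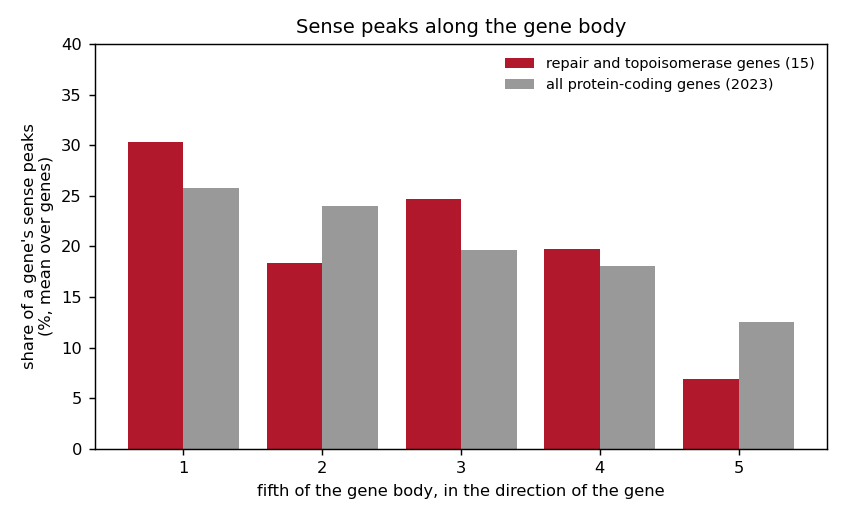
Share of a gene's sense peaks in each successive 20% of the gene body, as the mean over 15 repair and topoisomerase genes (red) and over 2023 protein-coding genes (grey), each with at least 5 sense peaks; bars start at 0. The last 20% held 6.87% in the repair genes and 12.6% in all genes.

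Nearly all peaks were on the strand of the gene. Strand was listed for 28 of the 35 genes, of which 20 held peaks. Of their 293 peaks 283 were sense (96.6%, interval 93.8 to 98.1%), against 98.0% in protein-coding genes. The interval treats peaks as independent, which peaks of the same gene are not, so it may be too narrow. The 10 antisense peaks were the 7 in Top1, the 2 over Desi1 in Xrcc6 and the 1 in Fanci. Without Top1 the sense share was 98.9%. Top3a, Rad50, Xrcc2, Prkdc and Fancd2, whose strand was not read, held 27 peaks and each had all of them on 1 strand.

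Peaks in the 35 genes were as wide as those elsewhere to within a few bases. Their median was 194 bases (quartiles 148 and 271), and over the whole list it was 196 (quartiles 146 and 268). Within the group the median was 287 bases in Msh6 and 258 in Top2a, and the widest peak, of 692 bases, was in Top2a. Small RNA genes inside these genes met peaks in 2 cases. A snoRNA gene of 122 bases in Top2a (LOC115487886, chromosome 11, 99017031 to 99017152) overlapped 2 peaks. The snRNA gene Gm25284 in Brca2 (chromosome 5, 150547313 to 150547453) was overlapped by the peak from 150547345 to 150547549.

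The promoters of genes with and without a peak had close median GC contents. Promoters of 300 bases, reaching 50 bases past the start, were listed for 28 of the 35 genes. Their median GC content was 60% in 20 genes with a peak and 59% in 8 without, against 56.3% over 17492 protein-coding genes and 61.7% over those of them with a peak. The GC box GGGCGG, read on both strands, was present in 21 of 28 (75%), against 46.3% of all promoters, in 15 of 20 with a peak and 6 of 8 without. The CCAAT box was present in 15 of 28 (53.6% against 39.2%). The E2F-type letters TTCGCGC and TTGGCGC were present in 2 and 3 of 28 (7.14% against 2.13%, and 10.7% against 3.22%). None of these motifs contains another, and a match describes the letters only.

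Further repair and R-loop genes had a lower median count of peaks, though Rif1 held more than any of the 35. Of 90 such genes 51 (56.7%, interval 46.4 to 66.4%) held a peak, against 26.5% of protein-coding genes in their length deciles. The median over those with a peak was 4, against 9 among the 35, and these medians were not adjusted for gene length. Rif1, which acts with 53BP1, held 50 peaks in 54.0 kb, the nucleotide excision gene Rad23b 30 and the checkpoint gene Rad17 24. Each of these 3 had all of its peaks on 1 strand. Break sensing and checkpoint genes outside the 35 held peaks in 9 of 11 cases (25.1% over their length deciles), where 3 of 8 did among the 35. Further Fanconi anaemia genes held them in 3 of 10 cases (25.9% over their deciles), where all 3 did among the 35, and base excision and single-strand break genes in 7 of 18 (22.2%). The nuclease gene Exo1 held 12 peaks and Rnaseh2a, a subunit of the enzyme that cuts RNA in hybrids, 15, while Brip1 held none. The last 3 genes named and the comparisons of group counts were picked after their values were seen, and these differences were not tested.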

How the data were processed

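FLASH in WT26 ES cells (2 DHX9 and 2 IgG pulldowns) is represented by the 1 peak list the authors deposited, giving for every peak its position and strand with no score. Its source field names PEAKachu as the caller; neither its version and settings nor the use of IgG and replicates is stated. Bowtie2 2.2.6, hg19 and mm10 appear in the submitters' processing notes, and the scaffold names of the list are those of mm10. Per the labels' protocols, IgG and DHX9 material was mixed after adapter ligation and PCR duplicates were merged by random tags.

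Gene bodies came from RefSeq GRCm38.p6 (49980 placed genes; all 35 genes matched by symbol), and strand and start from its promoter table (28 of 35; the most upstream start listed). A peak counted for every gene that held its midpoint. Length deciles were of protein-coding genes. Shares carry Wilson 95% intervals (scipy 1.17.1). Counting, strand and position were tested on simulated peaks. Genes, groups and lists were chosen with earlier results of these data known, and no list was tested. Values are given in full for the 10 genes with the most peaks (11 with a tie) and those with a peak within 1 kb of the start; of the other repair genes the 4 with the most were to be named, of which 1 is not reported here. Exons were not used here.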

Additional observations from a re-analysis of the deposited data

How the results depend on the processing

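The share of genes with a peak stayed 22.8 to 38.5 percentage points above that of genes of like length under the 6 alternatives tried: any overlap of 1 base, at least 3 peaks, only the wider peaks (the median width or more), sense peaks, the 100 genes of nearest length, and the 18 genes that overlap no other gene, where 10 held a peak (55.6%) and the difference was the smallest. The reported difference of 37.9 points fell to 22.8 in those 18 genes and to 26.15 with the wider peaks. Of the 21 alternatives in all, 0 reversed the reported value, but the size of the change varied. Some comparisons with all protein-coding genes did change side. Without Top1 the sense share lay above theirs (98.9 against 98.0%), where the reported 96.6% lay below. With at least 10 sense peaks, the share in the first 20% lay below theirs (22.2 against 26.1%), where the reported 30.3% lay above 25.8%. The 320 peaks became 157 when narrower peaks were dropped. Merging peaks within 50 bases lowered the density over the 35 genes from 0.140 to 0.121 per kb. The sense share was 98.9% without Top1. In the 7 genes with peaks that overlap no other gene all 76 peaks were sense, against 99.1% over such protein-coding genes. That set leaves out Top1 and Fanci, which overlap other genes, although their antisense peaks lay in no other gene. The excess of the first over the last 20% of the body, 23.4 percentage points, was 22.8 when the body was divided in 3, 21.3 with the wider peaks, 20.7 with merged peaks, 18.7 with peaks pooled over genes, 15.9 with at least 10 sense peaks and 25.8 with the body read from the listed start. The setting without Top1, the body read from the listed start, the runs of peaks and the promoter letters were chosen after seeing the data. The count of genes with at least 5 sense and 5 antisense peaks was not planned either. The share of peaks in exons and its alternative were not run. No paired analysis was possible because the list holds no value per replicate, and for the same reason no replicate could be left out. The depth behind the list is unknown, and how it limits these counts was not tested.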

Other observations

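Outside the gene bodies but within 5 kb of them lay 20 peaks, 10 of them the minus-strand peaks before Top1. The other 10 lay beside 5 genes, and 8 of these 10 were inside a neighbouring gene: 3 in Aimp2 beside Pms2, 3 in Zfp276 beside Fanca, and 1 each in Emc3 beside Fancd2 and Wnk1 beside Rad52. The peak in Zfp276 nearest Fanca (123266152 to 123266348) was on the plus strand, opposite to the peaks of Fanca, and its midpoint lay 44 bases outside the Fanca gene body. The remaining 2, on the minus strand like the 2 peaks inside Xrcc2, lay 1943 and 2691 bases below the low end of Xrcc2 and in no annotated gene.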
